A study of Mus musculus with 2 samples.

Results

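The 65 protein-coding mouse genes described here carry the names of the classic splicing protein families: SR proteins (Srsf), hnRNP proteins (Hnrnp), Sm and Lsm proteins (Snrp and Lsm) and the subunits of splicing factor 3 (Sf3a and Sf3b). They were chosen by symbol from the GENCODE M21 annotation of the GRCm38 assembly, out of 43346 mouse genes in the tables, 21474 of them protein-coding. Their expression was measured in whole thymus of newborn mice (postnatal day 0) of strain B6NCrl, with no treatment or genetic change given in the labels. Both libraries were made from 13 pg of total RNA, which the labels call 1 cell equivalent, although the RNA came from tissue and not from a sorted cell. Replicate 1 was pup 6 and replicate 2 was pup 7, listed under the same donor, and they form 1 group with no second condition. The SR family had 11 members, the hnRNP family 20, the Sm and Lsm family 25 and the SF3 family 9.

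Splicing removes introns from a pre-mRNA. Small nuclear RNAs do much of the recognition, each held in a particle (snRNP) around a ring of Sm proteins, or of Lsm proteins in the case of U6. SF3 is the part of the U2 snRNP that clamps the branch site of the intron. SR proteins mostly bind exons and promote their inclusion, and hnRNP proteins coat the pre-mRNA and often favour skipping, so the balance between these families sets many alternative splicing choices. T cells use such choices as they mature and become activated, CD45 exon skipping by Hnrnpll being a textbook case. Not every name match works in the spliceosome: Lsm1 belongs to the cytoplasmic ring of mRNA decay, Lsm14a and Lsm14b belong to cytoplasmic mRNA granules, Lsm12 is not a ring subunit, and Lsm10 and Lsm11 sit in the U7 particle that trims histone mRNAs.

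The tables held 25999043 expected counts in mouse genes in replicate 1 and 31902773 in replicate 2. Levels are in TPM (transcripts in every 1000000, a length-corrected share) rescaled over mouse genes. With 2 libraries of 1 group no test was possible, and each spread is the SD of 2 values that holds pup, RNA handling and library together. The 11 T lineage markers summed to 15180 TPM in replicate 1 and 14972 TPM in replicate 2, with all 11 read in both. The 5 erythroid markers summed to 3527 and 9132 TPM, the 6 heart and skeletal muscle markers to 1252 and 381 TPM, and the 5 thymic epithelium markers to 2451 and 2581 TPM. Of the muscle markers Nppa was read at 4312 counts in replicate 1 and 0 in replicate 2. The epithelial regulator Foxn1 had 0 and 1129 counts, while Psmb11 of the same list went the other way with 7440 and 1562. The 6 neuron markers summed to 107 and 62.3 TPM, from different genes in each library. Those were Tubb3 (2459 and 3 counts) and Rbfox3 (991 and 0) in replicate 1, and Elavl4 (3 and 1820) in replicate 2. Elavl3 was at 0 in both, and Snap25 and Stmn2 had 6 or fewer counts in each. The part of these differences in the results below was not tested. In whole tissue, fewer cells of a type and less RNA per cell cannot be told apart.

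Of the 65 genes, 60 were read in both libraries at 1 or more counts, against 32.1% of all protein-coding genes. Another 4 were read in 1 library (Srsf4, Hnrnph3, Lsm14b and Hnrnpul2), and Srsf12 in neither. Together the families held 15262 TPM in replicate 1 and 12256 TPM in replicate 2, a mean of 13759 ± 2125 TPM (SD, n = 2) or 1.38% ± 0.213 of all mouse TPM. Most were abundant: 39 had a mean of 100 TPM or more, which 8.42% of protein-coding genes reached, and 29 were among the 1000 most abundant protein-coding genes, a rank that 4.66% of all such genes hold.

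**Figure D1:**
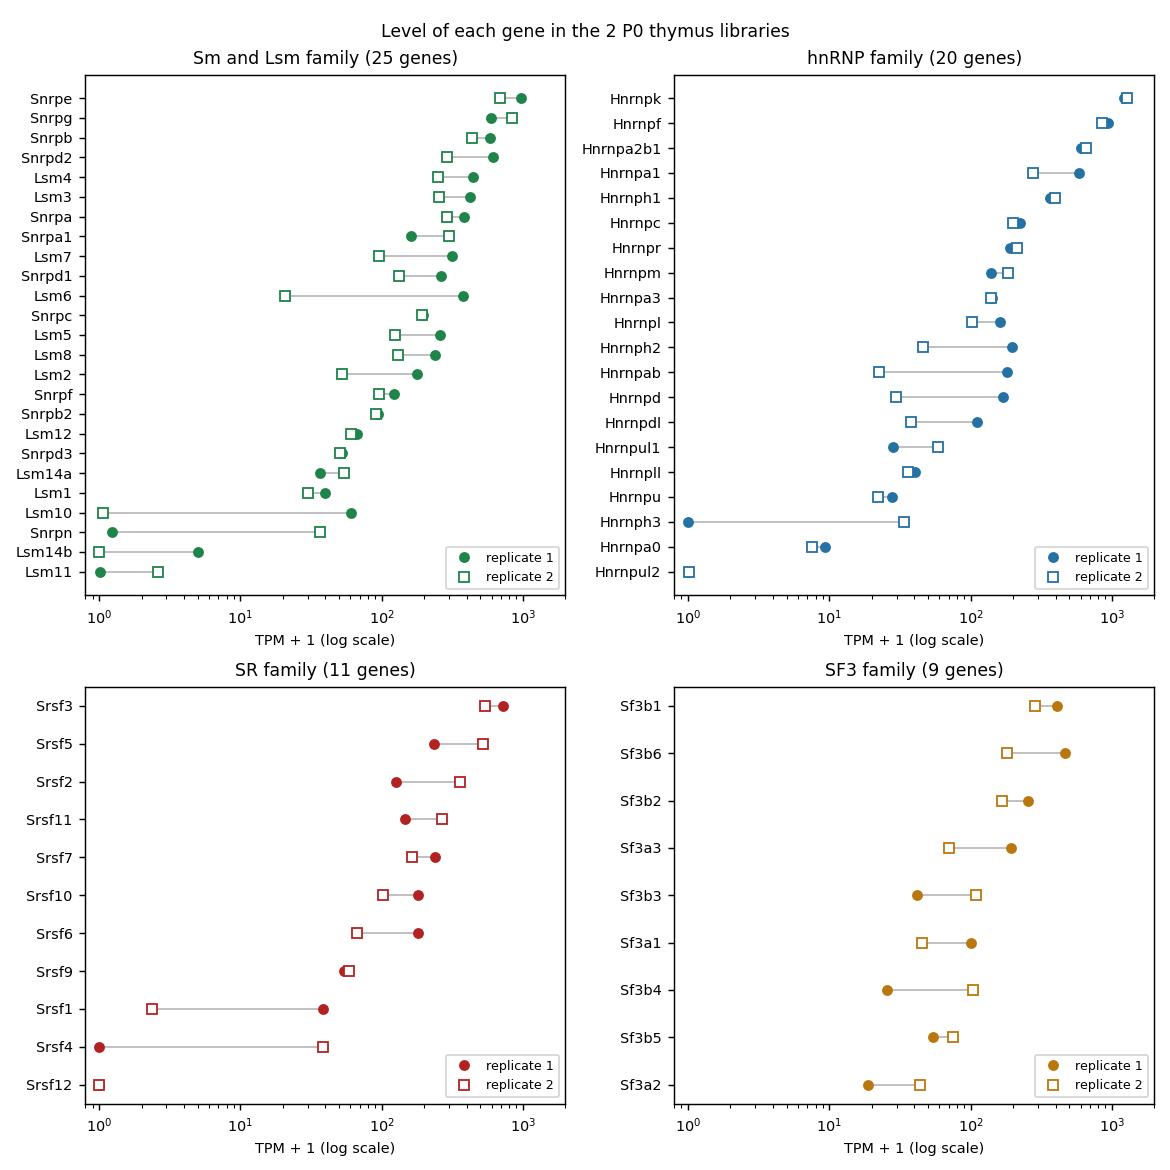
Level of each of the 65 genes in TPM + 1 on a log axis, in 4 panels by family, with filled circles for replicate 1, open squares for replicate 2 and a grey line joining them. Most abundant genes lie close together in both libraries, and the long lines belong to genes such as Lsm6 (373 and 19.9 TPM), Srsf1 (37.3 and 1.39 TPM) and Srsf4 (0 and 37.6 TPM).

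The SR family summed to 1909 TPM in replicate 1 and 2108 TPM in replicate 2. Srsf3, the smallest SR protein and one that also escorts mRNA out of the nucleus, led the family with 717 TPM in replicate 1 and 536 TPM in replicate 2 (626 ± 128). Srsf5 had 232 and 517 TPM (375 ± 202). Srsf2, also called SC35 and the usual marker of nuclear speckles, had 125 and 359 TPM (242 ± 166). Those last 2 were higher in replicate 2, by 1.15 and 1.52 on the log2 scale, while Srsf3 was higher in replicate 1. Srsf11 had 146 and 269 TPM, Srsf7 had 240 and 163 TPM, and Srsf10, a regulator whose activity depends on its phosphorylation, had 180 and 101 TPM. Srsf6 had 179 and 66.5 TPM. Srsf9 was the closest of the family between the libraries, at 53.4 and 57.8 TPM.

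Srsf1, the founding SR protein, had 3539 counts in replicate 1 and 82 in replicate 2, and Srsf4 had 0 and 1738. These differed in opposite directions: per mouse count, Srsf1 was 53.0-fold higher in replicate 1 (95% counting interval 42.5 to 66.8), and Srsf4 was at least 472-fold higher in replicate 2, against a floor of 3 counts per library. Srsf12, a divergent member of the family, had 0 counts in both, which allows up to 0.115 counts in 1000000 mouse counts in replicate 1 and 0.0940 in replicate 2. Intervals and floors cover counting error only, since the tables carry no molecular identifiers. In 13 pg of RNA, a transcript that was never captured also reads 0.

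SR genes are known for limiting their own protein through exons that bring an early stop codon, so that the mRNA is sent to nonsense-mediated decay (NMD). For the transcripts annotated as NMD targets with a mean of 5 TPM or more, the first part of each exon missing from the leading coding transcript, up to and including its in-frame stop, is shown where such an exon exists. There were 12 of these NMD transcripts among the 65 genes, and 5 of them had such an exon. These 4 do not overlap an exon of another coding transcript of their gene. Positions are on GRCm38, the sequence is 5′ to 3′ on the gene's strand, and the capitals mark the stop codon.
Srsf3-201, exon 4, chr17:29039454-29039487, plus strand: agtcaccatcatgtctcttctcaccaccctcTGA
Srsf11-206, exon 4, chr3:158024209-158024231, minus strand: ttcttttccctggttcagccTGA
Srsf11-212, exon 3, chr3:158023310-158023359, minus strand: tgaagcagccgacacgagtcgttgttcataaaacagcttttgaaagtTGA
Hnrnpl-213, exon 6, chr7:28817335-28817393, plus strand: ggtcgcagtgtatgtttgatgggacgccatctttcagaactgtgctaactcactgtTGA

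The Srsf3 exon is 456 bases long, and its stop closes 34 bases in, with 3 exon junctions still to come. The transcript that carries it had 86.1 TPM in replicate 1 and 114 TPM in replicate 2, against 167 and 109 TPM for the leading coding transcript Srsf3-202. So the 2 forms were within 2-fold of each other in TPM in both libraries. By expected counts NMD transcripts held 14.2% and 25.5% of Srsf3 and coding transcripts 37.5% and 33.1%, more than 2-fold apart in replicate 1. Srsf3-201 is 1919 bases long in the tables and 2594 in M21, so its exon and junctions come from a later model than its level. The Srsf11 exons of 117 and 109 bases belong to transcripts at 49.4 and 42.4 TPM (Srsf11-212, a model of 392 bases with no start codon) and at 30.1 and 27.1 TPM (Srsf11-206). Hnrnpl-213, whose exon spans 70 bases and whose model also lacks a start codon, had 12.5 TPM in replicate 1 and 0 in replicate 2. The remaining transcript with such an exon, Srsf6-201, had 96.1 TPM in replicate 1 and 0 in replicate 2. Its exon of 268 bases overlaps an exon of another coding transcript of Srsf6.

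Srsf2 takes a different route. Its transcript Srsf2-204 uses the same stop position as the coding form Srsf2-201 but has 2 exon junctions behind it, which is the arrangement that NMD recognises. Srsf2-204 had 84.9 TPM in replicate 1 and 260 TPM in replicate 2, above Srsf2-201 at 24.1 and 72.5 TPM. In expected counts the forms were about level, at 904 and 3125 for Srsf2-204 and 886 and 3013 for Srsf2-201, the model of Srsf2-204 being the shorter at 620 bases against 1899. Exons of Srsf2 overlap those of Mfsd11 and Mettl23 on the opposite strand, and whether the counting used strand is not given in the sources used here, so part of these reads may be theirs.

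Summed over the 10 SR genes that averaged at least 100 counts, transcripts annotated as NMD targets held 18.4% of TPM in replicate 1 and 21.2% in replicate 2. Those annotated with a retained intron held 25.8% and 22.1%. Both types together made up 44.2% and 43.4% of SR family TPM (43.8% ± 0.61, SD, n = 2), the 2 pups differing by under 1 percentage point. That sum hid single genes that moved in opposite directions. Srsf6 had 53.8% in replicate 1 and 0% in replicate 2, Srsf11 had 57.4% and 37.7%, and Srsf5 had 3.83% and 18.5%. Srsf2 (80.7% and 79.8%) and Srsf3 (76.7% and 79.6%) were high in both, and Srsf7, Srsf9 and Srsf10 had 0% in both. The share of both types was 13.2% and 15.7% in the hnRNP family, 5.85% and 8.64% in the Sm and Lsm family, and 14.6% and 8.72% in the SF3 family. Over all 8594 protein-coding genes at this depth it was 9.26% and 8.82%. TPM gives short transcript models more weight, and as a share of expected counts the SR value was 31.9% and 33%, against 6.92% and 6.60% over all protein-coding genes. Limited to genes with such a transcript, the count share was 13.3% and 12.7% in protein-coding genes and 20.2% and 20.7% in the members. By counts the hnRNP share was 4.70% and 5.74%, below that of all genes, whereas its TPM share was above. The Sm and Lsm share by counts was 6.24% and 9.70%, and the SF3 share 16.0% and 9.00%. These shares follow the annotated type and the authors' division of reads among transcripts. They do not tell spliced mRNA in the cytoplasm from unfinished RNA in the nucleus, since total RNA was sequenced.

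Among 63 members that averaged at least 100 counts, 8 had at least 25% of their TPM in NMD or retained-intron transcripts in both libraries, against 6.5% of all protein-coding genes at that depth. Counting only genes that have such a transcript in the tables, it was 8 of 35, or 22.9%, against 13.5%. The 8 were Srsf2, Srsf3, Srsf11, Hnrnpd, Hnrnpk, Hnrnpl, Snrpa1 and Sf3b1. By expected counts 5 genes passed, against 4.62% of all protein-coding genes: Srsf2, Srsf3, Hnrnpl and Snrpa1 again, and Lsm5. Srsf2 had 80.7% and 79.8% of its TPM in these types, and Srsf3 had 76.7% and 79.6%, most of it in the retained-intron transcript Srsf3-205 at 413 and 285 TPM. That model is 910 bases long in the tables and 2110 in M21, so its shape changed between annotation releases. Srsf7 had 100% of its TPM in a coding transcript in both libraries. It was not among the genes with more than 1 transcript in the tables, so that value was fixed in advance. Srsf10 had none in either type, but 74.3% and 64.9% of its TPM in Srsf10-207, a processed transcript with no annotated reading frame. By expected counts its coding transcripts led in both libraries, with 62.1% and 71.0% against 37.9% and 29.0% in processed transcripts.

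**Figure D2:**
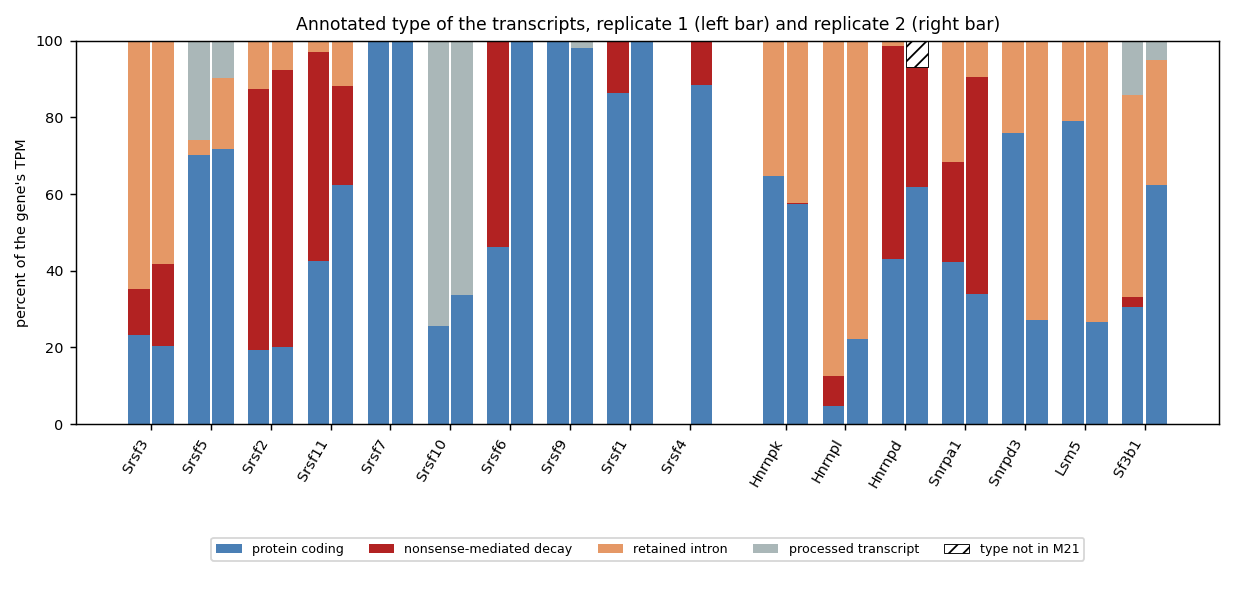
Percent of each gene's TPM by annotated transcript type, with replicate 1 as the left bar and replicate 2 as the right bar of each pair, for 10 SR genes on the left and 7 genes of the other families on the right. Srsf2 and Srsf3 show about the same small coding part in both libraries (19.3% and 20.2%, 23.3% and 20.4%), Srsf6 is divided in replicate 1 only, and Srsf4 has no replicate 1 bar because it was at 0.

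The hnRNP family summed to 5331 TPM in replicate 1 and 4579 TPM in replicate 2, and held the most abundant gene of the 65. Hnrnpk, which binds C-rich RNA and DNA, had 1222 TPM in replicate 1 and 1275 TPM in replicate 2 (1249 ± 37.5), rank 80 among protein-coding genes. Hnrnpf had 946 and 857 TPM (901 ± 62.4), and its relative Hnrnph1 had 361 and 394 TPM (378 ± 22.9). Both bind runs of G. In Hnrnph1, processed transcripts with no annotated reading frame held 67.2% and 80.0% of TPM, or 55.2% and 61.1% of expected counts. Hnrnpa2b1 had 608 and 659 TPM (633 ± 35.7) and Hnrnpa1, the best studied antagonist of Srsf1, had 589 and 276 TPM (432 ± 221). Of these 5, the pups differed by more than 2-fold in Hnrnpa1 alone. Hnrnpc, a core packaging protein that binds runs of U, had 223 and 199 TPM.

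Hnrnpll, the regulator of CD45 exon skipping in lymphocytes, had 39.3 TPM in replicate 1 and 35.4 TPM in replicate 2 (37.3 ± 2.75). It stood at rank 4131 among protein-coding genes by mean TPM, below its relative Hnrnpl at 159 and 101 TPM. In expected counts these genes were closer, at 2334 and 2376 for Hnrnpll and 2371 and 2003 for Hnrnpl. Most Hnrnpl signal came from 1 short transcript of 672 bases with a retained intron, Hnrnpl-210, at 139 and 76.1 TPM. The coding form Hnrnpl-202 had 4.34 and 18.7 TPM, below Hnrnpll-205, the coding form of Hnrnpll, at 32.1 and 35.3 TPM. Hnrnpk also had a retained-intron part, 35.2% of its TPM in replicate 1 and 42.4% in replicate 2, beside its coding form Hnrnpk-201 at 683 and 548 TPM.

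Several hnRNP genes were far apart between the pups. Hnrnpab, an RNA-binding transcription and transport factor, had 7523 counts in replicate 1 and 1041 in replicate 2. Hnrnpd, also called AUF1 and a binder of AU-rich elements in cytokine mRNAs, had 3731 and 875 counts. Hnrnph2, the X-linked copy of Hnrnph1, had 9158 and 2366 counts, or 196 and 45.0 TPM. All 3 were higher in replicate 1, by 3.0, 2.51 and 2.10 on the log2 scale of TPM + 1. Hnrnph3 went the other way with 0 and 513 counts, at least 139-fold higher in replicate 2. Hnrnpul2 had 0 counts in replicate 1 and 1 in replicate 2, too few for any ratio, while Hnrnpul1 had 27.3 and 57.9 TPM. Hnrnpdl, a close relative of Hnrnpd, had 109 and 36.7 TPM.

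The remaining hnRNP genes were closer between the pups. Hnrnpr had 188 and 212 TPM, Hnrnpm had 139 and 182 TPM, and Hnrnpu, a large nuclear scaffold protein, had 26.7 and 21.1 TPM. At the low end Hnrnpa0 had 8.39 and 6.49 TPM.

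Close copies need care. Over their coding sequences Hnrnph1 and Hnrnph2 were 81.3% identical, Snrpb and Snrpn 77.5%, and Hnrnpa1 and Hnrnpa3 71.6%, identical bases as a share of the longer sequence. Reads that fit both copies were divided by the authors' estimate. The members of each pair did not move together: Hnrnph1 was about level and Hnrnph2 higher in replicate 1, and Hnrnpa3 stood at 140 and 138 TPM while Hnrnpa1 differed by 1.09 on the log2 scale.

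The 7 Sm core proteins, which form the ring around U1, U2, U4 and U5, summed to 3197 TPM in replicate 1 and 2528 TPM in replicate 2. Snrpe had 970 and 688 TPM (829 ± 200), Snrpg had 597 and 837 TPM (717 ± 170) and Snrpb had 582 and 434 TPM (508 ± 104). Snrpd2 had 613 and 291 TPM (452 ± 227). Snrpd1 and Snrpf were lower, at 262 and 133 TPM and at 121 and 94.8 TPM. Snrpd3 was lowest at 51.5 and 50.1 TPM, and genes for subunits present once per ring spanned 16.3-fold in mean TPM. That span depends on the estimated lengths, which for Snrpd3 were 2460 and 1309 bases. Its expected counts were 2485 and 1401, 2.18-fold higher per mouse count in replicate 1. In mean counts Snrpf was lowest, at 1778 against 1943 for Snrpd3. The form of Snrpd3 that led in TPM differed between the pups: the coding transcript Snrpd3-201 held 76.0% of its TPM in replicate 1 and 27.2% in replicate 2, and the retained-intron transcript Snrpd3-202 the rest. Snrpd3-201 is a long model of 3028 bases and TPM divides by length. By expected counts it led in both pups, with 2342 and 924 counts against 143 and 477 for Snrpd3-202. All 7 were read in both libraries, and 6 of 7 were higher in replicate 1, Snrpg being the exception.

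Snrpn encodes SmN, a version of the Snrpb product known mainly from brain, on an imprinted locus. It had 9 counts in replicate 1 and 1507 in replicate 2, 136-fold higher per mouse count in replicate 2 (interval 71.7 to 299), or 0.235 and 35.6 TPM. Its exons overlap those of Snurf on the same strand, so the reads may belong to either. In replicate 2 Snrpb, at 434 TPM, still stood far above Snrpn.

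The ring of Lsm2 to Lsm8, which binds the end of U6, summed to 2229 TPM in replicate 1 and 921 TPM in replicate 2. Lsm4 had 443 and 251 TPM (347 ± 136), Lsm3 had 425 and 252 TPM (338 ± 122), Lsm7 had 312 and 94.3 TPM and Lsm5 had 260 and 123 TPM. Lsm8, the subunit that sets this nuclear ring apart from the decay ring, had 238 and 129 TPM. Lsm2 had 178 and 51.8 TPM, and Lsm6 differed most, with 3953 and 236 counts or 373 and 19.9 TPM. All 7 were higher in replicate 1, also with edgeR TMM or DESeq2 scaling, with a median log2 ratio of 1.07. Their levels in TPM spanned 2.50-fold in replicate 1 and 12.7-fold in replicate 2, against 18.8-fold and 16.7-fold in the Sm core.

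Short transcripts in general leaned the same way. Over all mouse genes averaging at least 1000 counts, the median log2 ratio (replicate 1 over replicate 2) came to 0.12 for those of 200 to 700 bases and 0.22 for those of 700 to 1000 bases, against -0.20 at 1500 to 3000 and -0.28 above 3000 bases. The members of those short classes had medians of 1.07 (6 genes) and 0.75 (9 genes), and the longer members had 0.14 at 1500 to 3000 bases (19 genes) and 0.32 above 3000 bases (11 genes), above 0 where the medians of all genes were below it. How much of the Lsm difference goes with length was not tested.

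Of the snRNP-specific proteins in the family, Snrpa (of the U1 particle) had 384 and 288 TPM, Snrpa1 (of the U2 particle) had 161 and 299 TPM, Snrpc (of U1) had 196 and 191 TPM and Snrpb2 (of U2) had 93.6 and 90.0 TPM. The last pair differed by 0.03 and 0.06 on the log2 scale. Snrpa1 signal lay largely outside its coding form: the NMD transcript Snrpa1-201 had 41.9 and 170 TPM, against 68.0 and 101 TPM for Snrpa1-206. Of the name matches outside splicing, Lsm12 had 66.2 and 59.5 TPM, Lsm14a had 35.8 and 53.4 TPM and Lsm1 had 38.5 and 29.2 TPM. In Lsm12, processed transcripts held 80.0% and 88.8% of TPM, or 44.0% and 61.0% of expected counts. Lsm14b had 201 counts in replicate 1 and 0 in replicate 2, at least 82.2-fold higher in replicate 1.

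Both U7 genes met the rule of 1 or more counts in both libraries, but each passed 1 count in a different pup. Lsm10 had 1021 counts in replicate 1 and 1 in replicate 2, a ratio of 1253 in favour of replicate 1 (interval 224 to 49533). Lsm11 had 1 count in replicate 1 and 235 in replicate 2, a ratio of 192 in favour of replicate 2 (interval 34.0 to 7596). The U7 particle needs both proteins, and neither library showed more than 1 count of its lower partner.

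The SF3 family summed to 1557 TPM in replicate 1 and 1074 TPM in replicate 2, and all 9 genes were read in both. Sf3b1, the large subunit that holds the branch site and is often mutated in blood cancers, had 407 and 286 TPM (347 ± 85.5). Its counts were nearer, at 28737 and 32477, or 1.09-fold higher per mouse count in replicate 1, with estimated lengths of 3554 and 5013 bases. Sf3b6, which contacts the branch adenosine, had 467 and 179 TPM (323 ± 203), and Sf3b2 had 255 and 166 TPM (210 ± 63.3). Sf3a3 had 192 and 69.9 TPM and Sf3a1 had 99.8 and 44.0 TPM. Sf3b3 went against these with 40.6 and 108 TPM, as did Sf3b4 with 24.7 and 103 TPM, a log2 ratio of -2.02. Sf3b5 had 53.1 and 74.5 TPM, and Sf3a2 had 17.9 and 43.1 TPM. So 5 of the 9 were higher in replicate 1 and 4 in replicate 2, and with TMM or DESeq2 scaling of counts it was 4 and 5.

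In Sf3b1 the transcript that led in TPM differed between the pups. The coding form Sf3b1-201 held 30.6% of its TPM in replicate 1 and 62.4% in replicate 2, and the retained-intron form Sf3b1-203 held 35.4% and 32.5%. By expected counts Sf3b1-201, a model of 6195 bases, led in both, with 15539 and 25151 counts against 9722 and 7087 for Sf3b1-203. Among 48 of the genes with more than 1 transcript in the tables and reads in both libraries, the most abundant transcript was the same in 33, or 68.8%, against 57.7% of 4753 protein-coding genes. By expected counts it was the same in 36 of 48, against 63.4%. In Hnrnpa2b1 the gene was level but the leading transcript was not, with Hnrnpa2b1-202 at 340 and 32.5 TPM and Hnrnpa2b1-201 at 167 and 372 TPM. Lsm5 was led by a coding transcript in replicate 1 (79.2% of its TPM) and by a retained-intron transcript in replicate 2 (73.4%).

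Among the 63 members averaging 100 or more counts, 11 (17.5%) were 4-fold or more apart in TPM + 1, 7 higher in replicate 1 and 4 in replicate 2. The same threshold was passed by 50.9% of all 9341 mouse genes at that depth, 21.5% higher in replicate 1 and 29.4% in replicate 2. Adding 1 TPM understates low genes, and Lsm11 is not among the 11 for that reason, with a log2 ratio of -1.38. In addition 36 of the 63 were within 2-fold, against 32.3%, and 5 had 3 or fewer counts in 1 library, against 35.2%. The share fell with abundance, in the members and in all genes. At 1000 to 3000 counts, 4 of 17 members differed 4-fold, against 50.7% of all genes, and at 3000 to 10000 counts it was 2 of 26, against 18.6%. In this last class the median size of the log2 ratio was 0.85 in the members and 0.86 in all genes. At 10000 to 30000 counts 0 of 7 members differed 4-fold, against 2.43%, with medians of 0.42 and 0.46, and among the 4 members above 30000 counts, Hnrnpk, Hnrnpf, Hnrnpa2b1 and Sf3b1, it was 0.13, against 0.28.

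**Figure D3:**
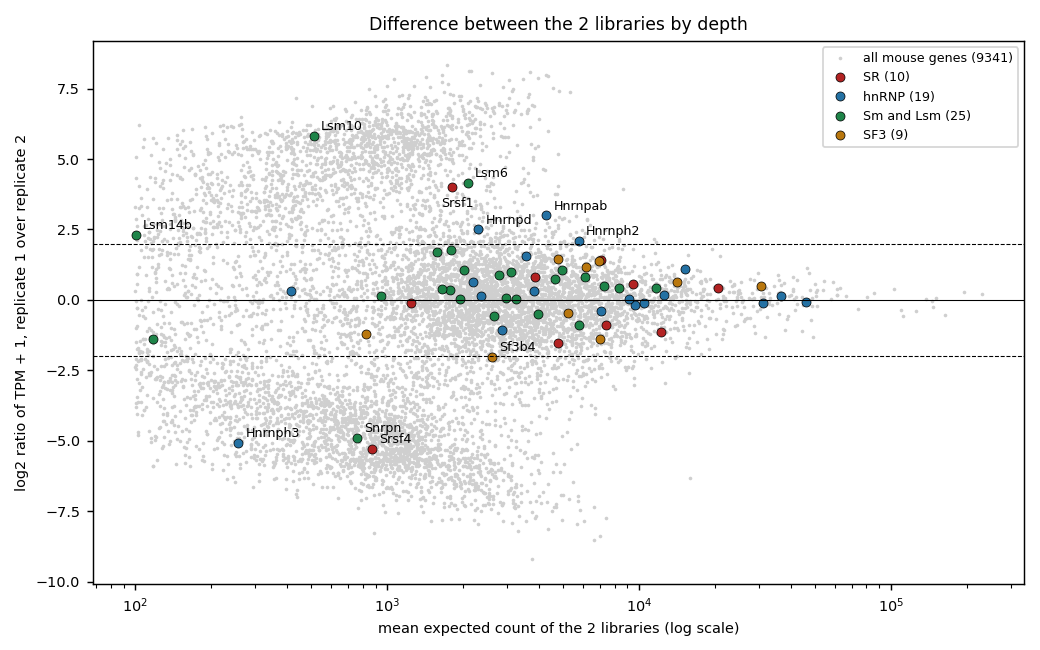
Log2 ratio of TPM + 1, replicate 1 over replicate 2, against the mean expected count on a log axis, with grey dots for 9341 mouse genes and coloured dots for the 63 family members at that depth. Dashed lines mark 4-fold differences, and the 11 members beyond them, from Lsm10 (5.83) to Srsf4 (-5.27), are named.

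**Figure D4:**
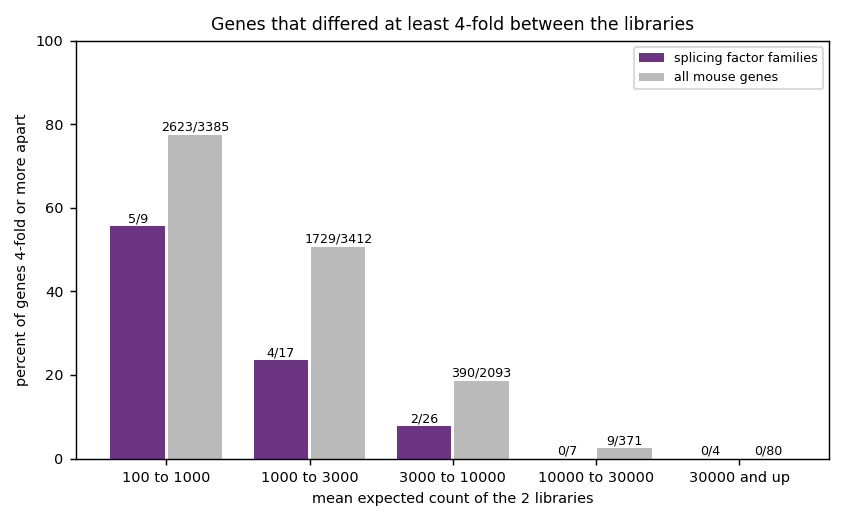
Percent of genes that differed at least 4-fold between the libraries, by mean expected count, for the family members (purple, left bar) and all mouse genes (grey, right bar), with the number of genes above each bar. Both fall with depth, to 0 of 7 and 9 of 371 genes at 10000 to 30000 counts.

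By direction, 42 of the 63 were higher in replicate 1, against 47% of all genes, with a median log2 ratio of 0.35 against -0.17. In the Sm and Lsm family 20 of 25 were higher in replicate 1 (18 to 20 under the other scalings). It was 12 of 19 in the hnRNP family (12 to 15 under the other scalings, with 14 or 15 where counts were scaled without regard to length) and 5 of 10 in the SR family (5 under each).

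The wider splicing machinery was read through 9 lists of 141 genes outside these families, of which 114 were read in both libraries, 18 in 1 and 9 in neither. Averaging at least 100 counts were 125 of them, and 34 (27.2%) differed 4-fold, against 50.9% of all mouse genes at that depth. Rbm39, an SR-like partner of U2AF, had 1321 TPM in replicate 1 and 992 TPM in replicate 2, and Tra2b, an SR-like enhancer of exon inclusion, had 407 and 311 TPM. Among the kinases that phosphorylate SR proteins, Clk1 had 426 and 521 TPM and Clk3 had 118 and 243 TPM, whereas Clk4 had 10.4 and 306 TPM. Snu13 of the tri-snRNP had 259 and 158 TPM, and Bud31 of the catalytic complexes had 481 and 395 TPM.

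Of the snRNP assembly factors, which load the Sm ring onto its RNA, 7 of 13 genes at that depth differed 4-fold, a share near the 50.9% of all mouse genes. Higher in replicate 1 were Smn1 (1191 and 1 counts), Gemin8 (3145 and 0), Coil (1296 and 0) and Gemin5 (7958 and 1296). Higher in replicate 2 were Snupn (0 and 2650), Phax (2 and 2904) and Wdr77 (1 and 1456). The genes of highest mean TPM in this list were not among these 7. Clns1a, the chaperone that holds Sm proteins before assembly, had 619 and 193 TPM, and Gemin7 of the SMN complex had 134 and 326 TPM. Strap had 177 and 101 TPM, and Prmt5, which methylates Sm proteins, had 51.6 and 86.1 TPM. Of 12 tissue-restricted regulators, 3 were read in both libraries. Ptbp2, the neuronal relative of Ptbp1, was read at 33 and 107 TPM, Elavl4 at 3 and 1820 counts and Rbfox1 at 40 and 2 counts. Rbfox3 had 991 counts in replicate 1 and 0 in replicate 2, and Srrm4 had 0 and 1. The neuronal factors Elavl2, Elavl3, Nova1, Nova2 and Srrm3 and the epithelial factors Esrp1 and Esrp2 were at 0 in both.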

How the data were processed

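Total RNA longer than 200 nt from whole thymus of 2 pups was sequenced with what the labels call a single cell method, with spike-ins, per the labels' protocols. The deposited tables give the authors' expected count (an estimated count that need not be whole), TPM and percent of each gene's isoforms, 1 table per library with nothing pooled. Per the submitters' notes the assembly was mm10 with annotation M4. The aligner and the estimating program were not given in the sources used here. The authors' TPM falls as model length grows, so a changed model changes a level.

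Gene IDs were matched without version to GENCODE M21 (42462 of 43346 found), which gave names, types, exons and coding sequences. TPM was rescaled to 1000000 over mouse genes. Ratios set replicate 1 over replicate 2, adding 1 TPM to each value, called at 4-fold where both libraries averaged at least 100 counts. Counts of 0 were set against 3 counts, and ratios to small counts carry exact 95% intervals. Of the 65 genes, 31 had counts that are not whole in 1 or both libraries (tolerance 0.005), and 25 overlap an exon of another gene.

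The members, lists and rule for names were chosen with earlier results of these data known. Named were up to 6 members per family by mean TPM, those at 10 or more counts in 1 library and 3 or fewer in the other, the 5 of largest ratio each way, members under 1 count, close copies, up to 4 genes per pathway list and tissue-restricted regulators. Other members were named after their values were seen, as each is accounted for, and not every pathway gene the rule selected is named. The snRNP assembly factors that differed 4-fold were also named after their values were seen. Close copies were found by coding-sequence identity of 70% or more in place of protein identity. The count-based scalings used edgeR 4.0.16 and DESeq2 1.42.0 on rounded counts, for factors only. The fold calls were tested on simulated counts, drawn for both libraries from a shared profile with planted changes and counting error only. That simulation holds no loss of transcripts at capture, so it gives no rate of false calls for these libraries. Python 3.11.15 with pandas 2.3.3 was used.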

Additional observations from a re-analysis of the deposited data

How the results depend on the processing

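No paired analysis was possible because both libraries belong to 1 group. Genes read in both libraries and the number sharing a leading transcript stayed within 1.5 times the reported counts under every alternative run. The median member had 131 TPM, the form in which the summed level of 13759 TPM can be compared between families of different size (141 in SR, 125 in hnRNP, 191 in Sm and Lsm, 74.4 in SF3). With a minimum mean of 1000 counts 6 genes differed 4-fold in place of 11, since fewer were tested, and 27 differed at a 2-fold threshold. The share of TPM in NMD and retained-intron transcripts, 15.7%, was 12.5% as a mean of the deposited isoform percentages and 11.3% as a share of expected counts, the last chosen after seeing the data, as was the count of 5 genes in place of 8 with 25% or more in such transcripts. Expected counts in place of TPM gave the same leading transcript in 36 genes in place of 33. Without replicate 1 or replicate 2 the sum ranged from 12256 to 15262 TPM and the share from 14.1% to 17.3%. Leaving out a library gives no value for measures that need both. Counts of genes higher in replicate 1 under other scalings were also added after seeing the data, and the SF3 family's median log2 ratio of 0.51 became -0.01 with TMM and -0.05 with DESeq2 scaling of counts. A floor of 3 counts equals 0.115 and 0.0940 counts in 1000000 in replicates 1 and 2, and with 13 pg of RNA a count of 0 in 1 library sets no limit on the tissue level.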

Other observations

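Among processed pseudogenes that carry family names, Snrpert, a copy named after Snrpe, had 149 TPM in replicate 1 and 130 TPM in replicate 2 (140 ± 13.7, SD, n = 2), while the other 3 had 0 in both or under 1 TPM. Its counts were 549 and 540. Whether these reads came from Snrpe was not tested.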
